A study of Mus musculus with 6 samples.

Results

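The inflammatory CC chemokines described here were the products of 10 mouse genes, Ccl2, Ccl3, Ccl4, Ccl5, Ccl6, Ccl7, Ccl8, Ccl9, Ccl12 and Ccl22. They were taken by symbol from a table of 21720 gene symbols measured by RNA-seq, and all 10 were found there and had enough counts in both groups to be tested. The tumours were grown from H22 cells, a mouse hepatocellular carcinoma line, injected under the skin of female wild-type BALB/c mice aged 6 to 8 weeks. The control group was given the vehicle, 0.5% carboxymethyl cellulose sodium, and the luteolin group was given luteolin, a plant flavonoid, at 200 mg/kg. Both were gavaged with 0.2 mL a day over 21 days, starting at a tumour volume of about 50 mm3. Each group gave 3 libraries, called control and luteolin replicates 1 to 3, and values listed for a group follow this order. The study's methods give 4 mice per group, and neither they nor the labels say which mice gave the libraries or whether RNA was pooled, so that the p values measure the spread between these libraries only. The model was a tumour under the skin and not in the liver, and a whole tumour holds host cells beside the H22 cells.

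CC chemokines are small secreted proteins named after 2 adjoining cysteines near their start, and they draw leukocytes along a gradient by binding G protein-coupled receptors of the CCR family. Ccl2, Ccl7, Ccl8 and Ccl12 are the mouse monocyte chemoattractant proteins. Ccl3, Ccl4 and Ccl5 draw T cells, NK cells and macrophages, Ccl6 and Ccl9 are myeloid chemokines that bind CCR1, and Ccl22 binds CCR4 on regulatory and helper T cells. In tumours these genes are known to be transcribed mainly by macrophages, dendritic cells and lymphocytes, although tumour cells can make some of them.

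The coding bases around the paired cysteines show how alike the genes are and that they remain distinct for read counting. In the windows below, 45 bases of the coding strand taken from the GENCODE M21 transcripts, the capitals mark the codons of the cysteine pair. They are given for the 4 genes that rose in the luteolin group (Ccl8, Ccl5, Ccl3 and Ccl4) and for Ccl12, the nearest neighbour of Ccl8.
Ccl8: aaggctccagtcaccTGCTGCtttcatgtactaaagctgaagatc
Ccl12: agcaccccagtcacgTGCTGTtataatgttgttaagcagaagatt
Ccl3: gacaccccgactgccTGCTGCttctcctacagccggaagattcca
Ccl4: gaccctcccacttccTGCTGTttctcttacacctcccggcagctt
Ccl5: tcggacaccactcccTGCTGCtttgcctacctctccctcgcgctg

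On the GRCm38 build each window lies within exon 2, at chr11:82116041-82116085 (Ccl8, plus strand), chr11:82102619-82102663 (Ccl12, plus strand), chr11:83648628-83648672 (Ccl3, minus strand), chr11:83663467-83663511 (Ccl4, plus strand) and chr11:83529218-83529262 (Ccl5, minus strand). The second cysteine was coded by TGC in Ccl8, Ccl3 and Ccl5 and by TGT in Ccl12 and Ccl4. Over the whole translated coding sequence, Ccl3 and Ccl4 shared 60.4% of residues, Ccl7 and Ccl12 58.3%, Ccl8 and Ccl12 56.2%, Ccl6 and Ccl9 56.2%, and the least alike pair, Ccl6 and Ccl12, 22.2%. The longest stretch shared base for base between 2 of these transcripts was 25 bp, in Ccl6 and Ccl9. No 31-base stretch of 8 of the genes recurred in a transcript of another gene. The exceptions were Ccl6, with 1.28% of its stretches found in 1 other gene, and Ccl9, with 3.80% found in 1049 other genes, so that a small part of the Ccl9 reads could have been assigned elsewhere.

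The genes lie in 2 groups on chromosome 11, and Ccl22 lies apart on chromosome 8 (chr8:94745590-94751699). The first group, chr11:82035571-82116799, holds Ccl2, Ccl7, Ccl12 and Ccl8 in this order, and the second, chr11:83525778-83664683, holds Ccl5, Ccl9, Ccl6, Ccl3 and Ccl4. In the annotation Ccl2 overlaps Gm17268 on the other strand, whose count was 0 in all 6 libraries. Ccl6 overlaps E230016K23Rik, a symbol that was not among those measured. Whether the counting used strand was not given in the sources used here.

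Total counts ran from 61081637 to 80442954 per library, and 15579 to 16767 genes had a count above 0. The lowest count of any of the 10 genes was 58, for Ccl4 in control replicate 3, although 1 unit of count may stand for less than 1 read pair. Levels are given as CPM, counts per 1000000 of the TMM-scaled library total. The luteolin libraries differed in keratinocyte markers. The summed level of 11 keratinocyte markers, which are made by the cells of the epidermis, was 14.4 to 18.6 CPM in the control group, and 392, 9003 and 21.4 CPM in the luteolin libraries. Krt5, Krt14, Krt1, Krt15 and Dsc3 were at 0 in every control library and above 0 in every luteolin library. Luteolin replicates 1 and 2 were therefore left out together as an alternative, which leaves luteolin replicate 3 alone against the control group. As to the labelled cell type, the liver tumour marker Afp was at 43.4 to 66.7 CPM in the control group against 32.7 to 41.8 CPM in the luteolin group. Gpc3, another of the 11 hepatocyte and hepatoma markers, went the other way without overlap. It was at 0.633 to 1.30 CPM in the control group against 3.13 to 9.34 CPM in the luteolin group. The summed level of this list overlapped between the groups, at 46.5 to 137 and 79.0 to 197 CPM. The hepatocyte regulator Hnf4a was at or near 0 in all 6 libraries.

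Against the control group, 4 of the 10 genes were up-regulated in the luteolin group at an adjusted p under 0.05 (edgeR's quasi-likelihood test, adjusted by Benjamini-Hochberg over all 14963 tested genes). These were Ccl8, Ccl5, Ccl3 and Ccl4, and none of the 10 was down-regulated. Over all tested genes 1.34% were called higher and 0.187% lower by the same rule. At the threshold used by the study, an unadjusted p under 0.05 with a fold change over 2, Ccl2, Ccl7 and Ccl22 were also higher, which made 7 of 10 where all tested genes gave 11.3% higher and 1.52% lower. In 8 of the 10 genes every luteolin library lay above every control library, an arrangement found in 15.9% of all tested genes, while 12.8% had every luteolin library below every control library. The median log2 fold change of the 10 genes was 1.48, and that of all tested genes was -0.0073. The summed level of the 10 genes was 356, 436 and 474 CPM in the control libraries against 1043, 1215 and 1180 CPM in the luteolin libraries, which is 2.72-fold between the group means. The sums did not overlap between the groups. In whole tumours, more cells of a producing type and more RNA per cell cannot be told apart.

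The adjusted calls varied with the libraries and the tool used. From all 6 libraries DESeq2 called 8 of the 10 genes, all but Ccl6 and Ccl12, and voom called 9, all but Ccl12. Over all genes DESeq2 called 9.58% higher and 2.58% lower, and voom 12.6% higher and 8.76% lower. In edgeR 8 of the 10 had an unadjusted p under 0.05, where all tested genes gave 14% higher and 6.44% lower. Without control replicate 1, 2 or 3, or without luteolin replicate 1, edgeR called 0 of the 10 genes, while 7, 8, 9 and 7 of them still had an unadjusted p under 0.05 and DESeq2 called 5, 7, 6 and 5. In the same settings the share of all genes that were higher was 10.7%, 9.52%, 11.1% and 12.7% at an unadjusted p under 0.05, and 8.79%, 6.68%, 9.68% and 9.36% by DESeq2's adjusted p. Over all tested genes edgeR also called 0 in these 4 settings, so that the adjusted calls named further on were lost there too. Without luteolin replicate 2 edgeR called the same 4 genes (1.82% of all genes higher), and without luteolin replicate 3 it called Ccl4, Ccl5 and Ccl8 (0.993% higher). Luteolin replicate 3 alone against the control group has no spread of its own, and its log2 fold changes are given without a test. They were 2.28 for Ccl8, 2.74 for Ccl5, 2.25 for Ccl3 and 2.60 for Ccl4. The other 6 were also above 0, from 0.11 for Ccl12 to 1.27 for Ccl22. The transcripts of the 10 genes had a GC content of 42.1% to 52.8%, where the median of all tested genes was 49.9%, and with an offset for GC content and length edgeR called 5, the 4 genes and Ccl9 (4.35% of all genes higher).

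**Figure D1:**
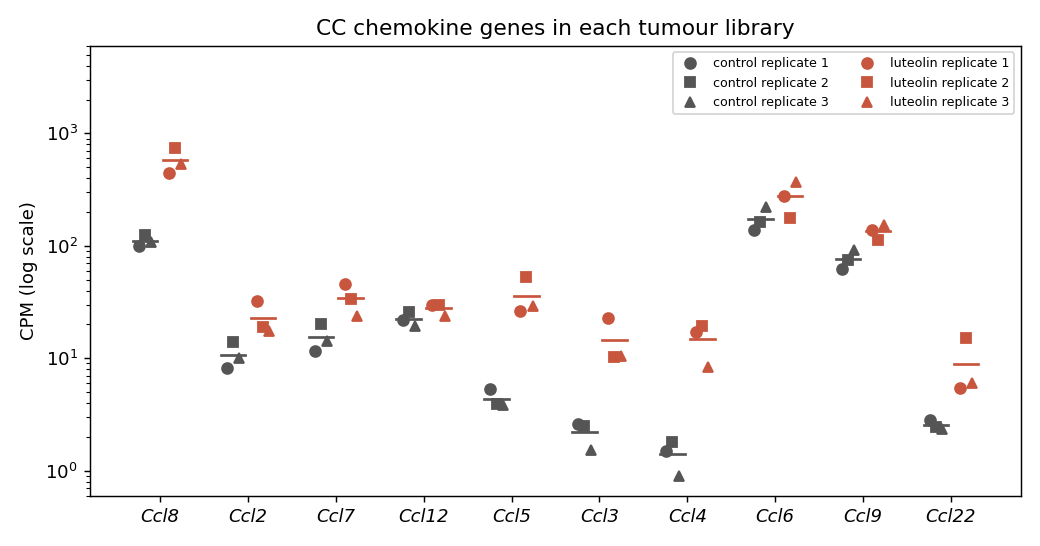
Level of each of the 10 CC chemokine genes in each library, in CPM on a log scale, with points for the 3 control (grey) and 3 luteolin (red) libraries and a short line at each group mean. The luteolin points lie above all control points in 8 genes, and overlap them for Ccl6 and Ccl12.

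Of the 4 monocyte chemoattractants, Ccl8 passed the adjusted test in edgeR, and Ccl2 and Ccl7 were higher at the study's threshold. In mice Ccl8 is known as a ligand of CCR8, a receptor of helper T cells. Its level was 99.5, 125 and 109 CPM in the control libraries against 446, 745 and 536 CPM in the luteolin libraries. The groups were far apart, and the lowest luteolin library lay 3.55-fold above the highest control library. The group means were 111 ± 13.1 CPM and 576 ± 153 CPM (SD, n = 3 each), a 5.17-fold difference. This gave a log2 fold change of 2.37 ± 0.23 (SE, edgeR adjusted p = 0.0302), and it ran from 2.16 to 2.52 when each library was left out in turn.

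Ccl12, which binds CCR2 and lies 11784 bp before Ccl8, was at 21.9, 25.9 and 19.4 CPM in the control libraries against 29.9, 30.1 and 23.9 CPM in the luteolin libraries. The groups overlapped, since luteolin replicate 3 lay below control replicate 2. Its log2 fold change was 0.32 ± 0.20 (SE, edgeR adjusted p = 0.418). The ratio of Ccl8 to Ccl12 counts was 4.54, 4.85 and 5.62 in the control libraries against 14.9, 24.8 and 22.4 in the luteolin libraries. This ratio compares both genes within a library, so that it does not depend on how the libraries were scaled, and it did not overlap between the groups.

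Ccl2, the main attractant of monocytes through CCR2, was at 8.13, 13.8 and 10.1 CPM in the control libraries against 32.6, 18.8 and 17.6 CPM in the luteolin libraries. Luteolin replicate 1 was the highest, and the groups did not overlap. The log2 fold change of 1.11 ± 0.33 (SE) did not pass the adjusted test (edgeR adjusted p = 0.141), and it was 0.74 with luteolin replicate 3 alone. Ccl7, which binds CCR2 and CCR1 and lies 8258 bp from Ccl2, was at 11.7, 20.0 and 14.3 CPM in the control libraries against 45.3, 33.8 and 23.9 CPM in the luteolin libraries. Its order of libraries was close to that of Ccl2, with luteolin replicate 1 again the highest and control replicate 1 the lowest. For Ccl7 the log2 fold change was 1.16 ± 0.31 (SE, edgeR adjusted p = 0.114), and it was 0.65 with luteolin replicate 3 alone. Without control replicate 1, or without luteolin replicate 1, neither Ccl2 nor Ccl7 reached the study's threshold. The ratio of Ccl7 to Ccl2 counts was 1.43 to 1.45 in the control group against 1.36 to 1.79 in the luteolin group, which overlap.

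Ccl8 and Ccl12 are neighbours on the same strand, and the bases before their starts are given for that reason. The lines hold the last 100 bases before the transcription start from the RefSeq promoter table (GRCm38.p6, plus strand), chr11:82115085-82115184 for Ccl8 and chr11:82101745-82101844 for Ccl12. The capitals mark matches to the motifs that were searched.
Ccl8: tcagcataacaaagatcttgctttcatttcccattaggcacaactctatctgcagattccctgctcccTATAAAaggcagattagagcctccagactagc
Ccl12: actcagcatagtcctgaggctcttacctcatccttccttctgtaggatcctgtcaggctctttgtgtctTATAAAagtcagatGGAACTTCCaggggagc

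The table held 6 of the 10 genes (Ccl3, Ccl6, Ccl8, Ccl9, Ccl12 and Ccl22), and motifs were searched on both strands over the 250 bases before each start. TATAAA began 32 bases before the start of Ccl8 and 31 before that of Ccl12, and it was also matched in Ccl9. It was found before 12.97% of the 27025 genes of the table. GGAANTTCC was matched in Ccl12, 17 bases before its start (0.84% of all genes), GAAANNGAA in Ccl3 (7.16%) and TGANTCA in Ccl9 (6.87%). GGGANTTTC (0.98%) and GGGANTTCC (1.42%) were matched in 0 of the 6 genes. Matches in such short windows are a description of the letters only.

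Ccl4, Ccl5 and Ccl3 had the largest fold changes of the 10 genes. Ccl5, made by T cells, NK cells and macrophages and a ligand of CCR1 and CCR3, was at 5.31, 3.95 and 3.85 CPM in the control libraries against 26.2, 53.3 and 28.9 CPM in the luteolin libraries. The groups were 4.93-fold apart at their nearest libraries, and luteolin replicate 2 stood highest. The group means were 4.37 ± 0.815 CPM and 36.1 ± 14.9 CPM (SD, n = 3 each), and the log2 fold change was 3.05 ± 0.35 (SE, edgeR adjusted p = 0.0331). Without luteolin replicate 2 it was 2.67.

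The study also measured Ccl5 by PCR, and its primer pair shows which part of the transcript that assay reads.
Forward: gtgcccacgtcaaggagtat
Reverse: ctctgggttggcacacactt

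The forward primer matched exon 2 of Ccl5 (chr11:83529194-83529213) and the reverse primer exon 3 (chr11:83526022-83526041) on GRCm38, so that the product of 101 bp spans a splice junction. The product lies within the coding sequence, and 0 other genes were matched by both primers.

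Ccl3, a ligand of CCR1 from activated macrophages and lymphocytes, was at 2.62, 2.50 and 1.54 CPM in the control libraries against 22.8, 10.3 and 10.5 CPM in the luteolin libraries. Luteolin replicate 1 was the highest, and the lowest luteolin library lay 3.94-fold above the highest control library. Ccl3 had a log2 fold change of 2.71 ± 0.44 (SE, edgeR adjusted p = 0.0437). Ccl4, an attractant of T cells and macrophages that lies 13228 bp from Ccl3, was at 1.502, 1.81 and 0.899 CPM in the control libraries against 17.2, 19.2 and 8.42 CPM in the luteolin libraries. It had the largest fold change of the 10 genes, 10.7-fold between the group means, and its nearest libraries were 4.66-fold apart. Ccl4 had a log2 fold change of 3.41 ± 0.46 (SE, edgeR adjusted p = 0.0331). Without a filter on low counts, Ccl3 missed the adjusted threshold (edgeR adjusted p = 0.0516). The ratio of Ccl4 to Ccl3 counts was 0.574 to 0.722 in the control group against 0.755, 1.86 and 0.803 in the luteolin libraries, so that the gap between the groups was small in luteolin replicates 1 and 3.

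**Figure D2:**
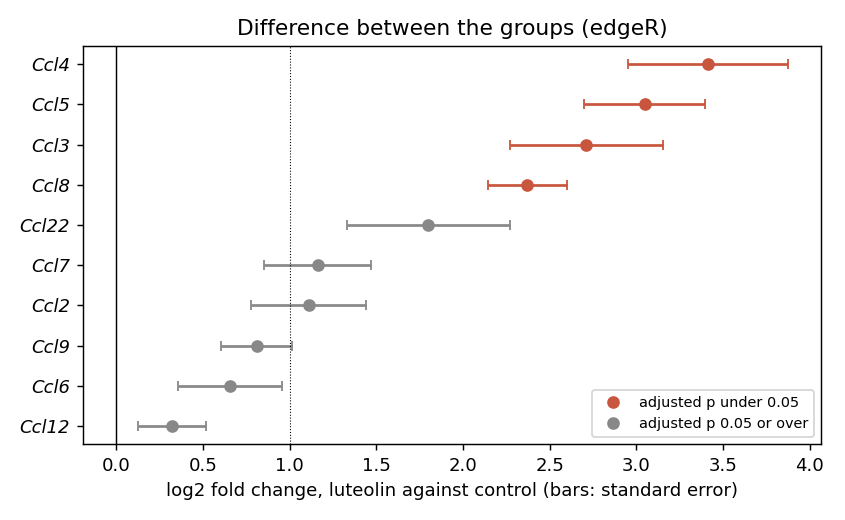
Log2 fold change of the luteolin group against the control group for each gene, with bars for the standard error of the edgeR fit, and red for an adjusted p under 0.05. The values run from 0.32 for Ccl12 to 3.41 for Ccl4, and the dotted line marks a 2-fold difference.

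The myeloid chemokines Ccl6 and Ccl9 started from high levels and had small fold changes. Ccl6, a macrophage chemokine that binds CCR1, was at 139.7, 164 and 220.3 CPM in the control libraries against 279.9, 177 and 369.8 CPM in the luteolin libraries. The groups overlapped, since luteolin replicate 2 lay below control replicate 3. Its log2 fold change was 0.66 ± 0.30 (SE, edgeR adjusted p = 0.28). Ccl9, also a ligand of CCR1, was at 62.3, 75.6 and 92.4 CPM in the control libraries against 138, 112 and 154 CPM in the luteolin libraries. Its groups did not overlap, and luteolin replicate 2 was the lowest of its group, as for Ccl6. The log2 fold change of 0.81 ± 0.20 (SE) did not pass the adjusted test (edgeR adjusted p = 0.101), although it did with DESeq2 (adjusted p = 0.0159), with voom (adjusted p = 0.0033) and with an offset for GC content and length in edgeR (adjusted p = 0.0223). Ccl6 and Ccl9 lie 9245 bp apart, and the ratio of their counts was 2.17 to 2.38 in the control group against 1.59 to 2.40 in the luteolin group, which overlap.

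Ccl22, made by dendritic cells and macrophages, was at 2.85, 2.46 and 2.36 CPM in the control libraries against 5.45, 15.1 and 6.09 CPM in the luteolin libraries. The groups did not overlap, but luteolin replicate 2 lay well above the other 2 libraries of its group. The log2 fold change of 1.80 ± 0.47 (SE) did not pass the adjusted test (edgeR adjusted p = 0.109), and it was 1.19 without luteolin replicate 2. Ccl17, the other ligand of CCR4, was chosen after its values were seen. It was at 4.55, 3.47 and 2.73 CPM in the control libraries against 0.522, 1.80 and 0.720 CPM in the luteolin libraries, a log2 fold change of -1.82 ± 0.58 (SE, edgeR adjusted p = 0.157). The groups did not overlap, with the luteolin group below the control group. The ratio of Ccl22 to Ccl17 counts was 0.626, 0.707 and 0.864 in the control libraries against 10.4, 8.41 and 8.46 in the luteolin libraries. This ratio, which is not corrected for length, did not overlap between the groups.

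To compare levels between genes, CPM were divided by transcript length in kb. In the control group the order of the mean levels was Ccl8 (218 CPM per kb), Ccl6 (121), Ccl12 (41.7), Ccl9 (25.5), Ccl7 (19.2), Ccl2 (9.74), Ccl5 (6.54), Ccl3 (2.90), Ccl4 (2.13) and Ccl22 (1.15). The ranges of Ccl9 and Ccl7, of Ccl2 and Ccl5, and of Ccl3 and Ccl4 overlapped, and the other neighbours in this order did not. In the luteolin group the order was Ccl8 (1127 CPM per kb), Ccl6 (191), Ccl5 (54.1), Ccl12 (52.1), Ccl9 (44.7), Ccl7 (42.9), Ccl4 (22.7), Ccl2 (21.0), Ccl3 (19.0) and Ccl22 (4.01). Ccl8 stood 5.89-fold above Ccl6 there and 1.80-fold above it in the control group. Neighbours from Ccl5 to Ccl7, and from Ccl4 to Ccl3, overlapped in the luteolin group, so that their order is not set by these libraries. With the length of all exons of a gene together, in place of the longest transcript, Ccl5 came 6th and not 3rd in the luteolin group.

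**Figure D3:**
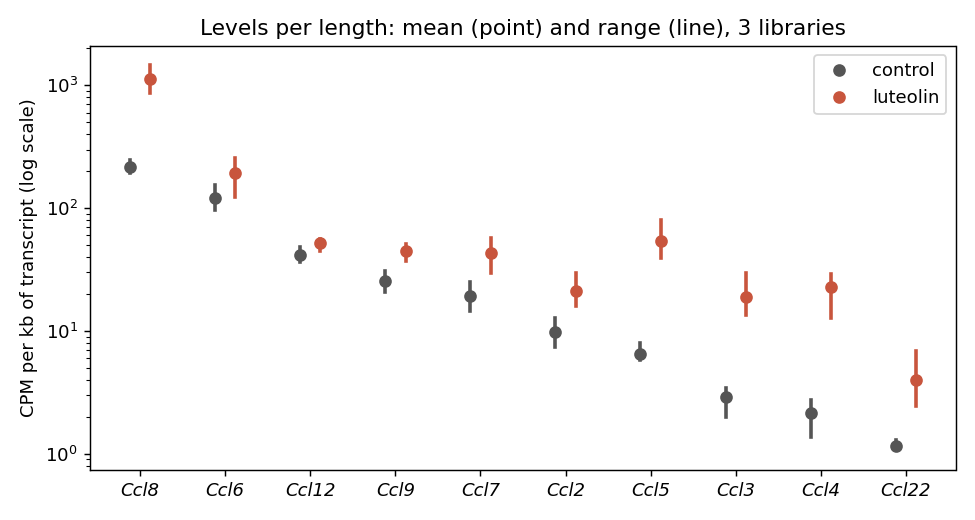
Level per length of each gene in CPM per kb of transcript on a log scale, with the mean as a point and the range over 3 libraries as a line, control in grey and luteolin in red. Ccl8 is the highest and Ccl22 the lowest in both groups, and Ccl5 moves from 7th to 3rd place.

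The make-up of the summed CPM of the 10 genes also differed between the groups. These shares are not corrected for length, so they are compared only within a gene. Ccl8 made up 27.97%, 28.8% and 23.03% of the sum in the control libraries against 42.8%, 61.3% and 45.5% in the luteolin libraries. Ccl6 made up 39.3%, 37.7% and 46.4% in the control libraries against 26.8%, 14.6% and 31.3% in the luteolin libraries. Neither gene's shares overlapped between the groups. The mean share of Ccl5 was 1.07 ± 0.369% in the control group against 3.11 ± 1.10% in the luteolin group (SD, n = 3 each), and that of Ccl12 was 5.40 ± 1.13% and 2.46 ± 0.421%.

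**Figure D4:**
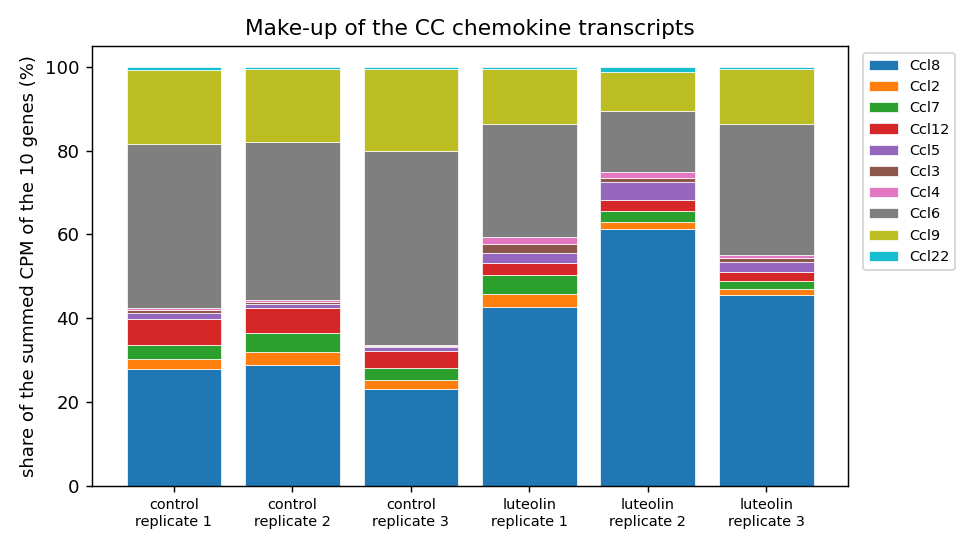
Share of each gene in the summed CPM of the 10 CC chemokine genes, in percent, as stacked bars for the 6 libraries. The Ccl8 share lies between 23.03% and 28.8% in the control libraries and between 42.8% and 61.3% in the luteolin libraries.

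Within the luteolin group no single library was highest throughout. Luteolin replicate 1 was the highest of its group for 3 genes (Ccl2, Ccl3 and Ccl7), replicate 2 for 5 (Ccl4, Ccl5, Ccl8, Ccl12 and Ccl22) and replicate 3 for 2 (Ccl6 and Ccl9). The largest spread was that of Ccl22, whose highest luteolin library was 2.77-fold the lowest, and the smallest that of Ccl12, at 1.26-fold. Over the 6 libraries the Pearson correlation of log2 CPM between pairs of the 10 genes ran from 0.092 for Ccl6 and Ccl12 to 0.985 for Ccl5 and Ccl8, with a median of 0.797 over every pair. These points share the difference between the groups and the scaling of each library, and are given as a description. Over all genes, the deviation of a library from the gene means also went with GC content. The Spearman correlations were 0.42, -0.17 and -0.52 in the control libraries and -0.18, 0.43 and -0.36 in the luteolin libraries. The part of this in the order of the libraries was not tested. The genes outside the list whose log2 CPM was most like the mean of the 10 were Tnfaip3 (r = 0.997), Prr5l (r = 0.997), C1qtnf7, Vpreb3 and Tbc1d9 (r = 0.995 each). C1qtnf7 and Vpreb3 had 0 counts in each control library. Of 14953 genes ranked, 770 had an r over 0.9, so that such a likeness was common in these libraries.

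The levels of cell type markers differed between the groups as well, and the counts of markers without overlap stand against 15.9% of all tested genes above and 12.8% below. The summed level of 12 monocyte and macrophage markers was 1023 to 1195 CPM in the control group against 1664 to 2519 CPM in the luteolin group, and 10 of the 12 did not overlap, with Cd68 passing the adjusted test. The most abundant of the 12 were C1qa, C1qc and Mrc1, and none of the 12 was at 0. C1qa and Mrc1 were the markers that overlapped between the groups. The sum of the 10 chemokines over this marker sum was 0.298, 0.426 and 0.440 in the control libraries against 0.627, 0.482 and 0.605 in the luteolin libraries. For Ccl8 alone the ratio was 0.0832 to 0.123 in the control group against 0.268 to 0.296 in the luteolin group, without overlap. For Ccl6 this ratio overlapped between the groups, and for Ccl12 it was lower in the luteolin group, at 0.0119 to 0.0180 against 0.0180 to 0.0253, ranges that nearly touch.

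The summed level of 9 T cell markers (most abundant Thy1, Cd4 and Cd3g) was 32.6 to 36.8 CPM in the control group against 108 to 215 CPM in the luteolin group, and 9 of 9 did not overlap, with Cd8a and Thy1 passing the adjusted test. The ratio of Ccl5 to this sum was 0.108 to 0.163 in the control group against 0.233 to 0.269 in the luteolin group. The sums of 7 NK cell markers (Prf1, Gzma and Klrk1) were 4.18 to 10.7 and 33.8 to 62.7 CPM, with Klra8 at 0 in each library, and 6 of 7 did not overlap. Those of 9 dendritic cell markers (Itgax, H2-DMb2 and Zbtb46) were 147 to 167 and 228 to 351 CPM, and 6 of 9 lay above the control group. Itgax made up most of this sum, with means of 87.7 CPM in the control group and 194 CPM in the luteolin group. Zbtb46, Clec9a and Cd209a overlapped between the groups, and the mean of Zbtb46 was lower in the luteolin group (30.5 and 24.4 CPM). Over this dendritic cell sum, Ccl22 was at 0.0161 to 0.0171 in the control group against 0.0239, 0.0430 and 0.0185 in the luteolin libraries. The markers of neutrophils (19.0 to 22.4 and 89.8 to 182 CPM, with 4 of 9 above), of the joint list of eosinophils and mast cells (10.7 to 16.8 and 44.2 to 130.3 CPM, 8 of 11 above), of B cells (2.70 to 4.90 and 6.63 to 25.1 CPM, 2 of 5 above) and of fibroblasts (1436 to 1608 and 2080 to 5062 CPM, 6 of 8 above) were also higher by their sums, and their most abundant genes were Csf3r, S100a9 and Cxcr2, then those of the joint list, then Cd79b and Cd79a, and then Col3a1, Col1a1 and Col1a2. The joint list was led by the mast cell genes Hdc, Mcpt4 and Tpsb2, while of the eosinophil genes Siglecf and Prg2 overlapped between the groups and Epx was at 0 throughout. The eosinophil gene Il5ra was low but did not overlap, at 0 to 0.170 CPM in the control group against 0.239 to 0.438 CPM in the luteolin group. Of the neutrophil genes, Ly6g, Retnlg and Mmp8 overlapped between the groups. The mean of Ly6g was 0.309 CPM in the control group and 0.208 CPM in the luteolin group. Camp and Ngp were at 0 in every control library and had most of their counts in luteolin replicate 3. Of the fibroblast genes, Lum and Fap overlapped between the groups, and the mean of Fap was lower in the luteolin group (5.59 and 4.35 CPM). The endothelial, adipocyte, Langerhans cell and hepatocyte sums overlapped between the groups. Epcam made up most of the Langerhans cell sum, and it was lower in the luteolin group (119 to 135 and 46.6 to 102 CPM). Cldn1 was at 0.124 to 0.172 CPM in the control group against 2.29, 36.6 and 0.563 CPM in the luteolin libraries. Cd207 was at 0 to 0.0772 CPM in the control group against 0.686, 10.2 and 0.0626 CPM in the luteolin libraries. With 3 libraries against 3, an exact two-sided permutation test of a sum cannot go below 0.1, which the lists without overlap gave. The part of these cells in the chemokine levels was not tested.

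The receptors of the CC family were described from a list of 10 genes. At an adjusted p under 0.05 edgeR called 0 of 10, DESeq2 3 and voom 4, where DESeq2 called 9.58% and voom 12.6% of all genes higher. At an unadjusted p under 0.05, and at the study's threshold, 6 were higher and 0 lower in edgeR (14% and 11.3% of all tested genes higher), with a median log2 fold change of 1.27. The count of 6 fell to 3 without control replicate 1, to 2 without control replicate 2 and to 3 without luteolin replicate 1. Ccr1 had a log2 fold change of 1.04 (edgeR adjusted p = 0.177), and Ccr2, the receptor of Ccl2, Ccl7 and Ccl12, one of 0.26 (adjusted p = 0.897), with groups that overlapped in both. Ccr2 ran from 6.11 CPM in control replicate 1 to 58.4 CPM in control replicate 3, a spread within the control group wider than its difference between the groups. Ccr3, a receptor of eosinophils (log2 fold change 0.72), and Ccr4, the receptor of Ccl22 (log2 fold change 2.43), were at or below 2.56 CPM in each library and overlapped. The smallest p values of the list were those of Ccr9, a receptor of gut-homing T cells (log2 fold change 2.66; edgeR adjusted p = 0.062), and Ccr7, the receptor of the lymph node chemokines (log2 fold change 1.77; adjusted p = 0.140).

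A list of 5 atypical receptors was described, most of which bind chemokines without the usual signal. Of these genes, Ccrl2 rose from 3.49, 3.35 and 2.85 CPM in the control libraries to 16.5, 11.3 and 11.2 CPM in the luteolin libraries. Its log2 fold change was 2.01 ± 0.29 (SE, edgeR adjusted p = 0.0362). Ackr2, a scavenger of inflammatory CC chemokines, came next with a log2 fold change of 3.63 (edgeR adjusted p = 0.0776), and its control levels were low, at 0.0620 to 0.114 CPM. In this list 3 of 5 were higher and 0 lower at the study's threshold (11.3% and 1.52% of all tested genes), with a median of 2.05. The count of 3 was 2 without control replicate 1, 2 or 3 or without luteolin replicate 2. It was 4 without luteolin replicate 1 or 3.

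Of 11 other CC chemokines 9 were tested. In edgeR 0 passed the adjusted test, where DESeq2 called 4 (9.58% of all genes higher and 2.58% lower) and voom 3 (12.6% and 8.76%). At an unadjusted p under 0.05, and at the study's threshold, 3 were higher and 1, Ccl17, was lower in edgeR, with a median log2 fold change of 0.69. The smallest p values were those of Ccl11, an attractant of eosinophils (log2 fold change 2.19; edgeR adjusted p = 0.0531), and Ccl1, a ligand of CCR8 (log2 fold change 2.36; adjusted p = 0.101). Ccl11 was at 1.87, 1.90 and 4.11 CPM in the control libraries against 12.9, 11.1 and 12.03 CPM in the luteolin libraries, groups that did not overlap. Ccl1 was far lower, at or below 1.83 CPM in each library.

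The list of 10 cytokines known to induce these chemokines had 8 tested genes. Il1b, which drives chemokine transcription in many cell types, rose with a log2 fold change of 3.02 ± 0.41 (SE, edgeR adjusted p = 0.0331), from 14.5, 16.8 and 11.1 CPM in the control libraries to 165, 122 and 57.5 CPM in the luteolin libraries. Tnf, the other gene with the smallest p, had a log2 fold change of 2.42 ± 0.43 (SE, edgeR adjusted p = 0.0505). At the study's threshold 6 of 8 were higher and 0 lower (11.3% and 1.52% of all tested genes), with a median of 2.49. The count of 6 was 3 without control replicate 1 or without luteolin replicate 1. At an adjusted p under 0.05 edgeR called 1 gene of this list, DESeq2 5 and voom 6. Over all genes the 3 tools called 1.34%, 9.58% and 12.6% higher, and 0.187%, 2.58% and 8.76% lower. Of 14 transcription factors that act on chemokine genes, Fos, a part of the AP-1 dimer, had a log2 fold change of 1.75 (edgeR adjusted p = 0.0723). At the study's threshold 3 of the 14 were higher and 0 lower (11.3% and 1.52% of all tested genes), with a median of 0.38. At an adjusted p under 0.05 edgeR called 1 of the 14, DESeq2 5 and voom 6, beside the shares of all genes just given.

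Of 12 genes that carry the signal of chemokine receptors inside the cell, edgeR called 0 at an adjusted p under 0.05, DESeq2 6 and voom 7 (9.58% and 12.6% of all genes higher). In edgeR 9 had an unadjusted p under 0.05 (14% of all tested genes higher), and 5 were higher and 0 lower at the study's threshold (11.3% of all tested genes higher), with a median log2 fold change of 0.93. The count of 5 was 3 without control replicate 1 or without luteolin replicate 2. The smallest p values were those of Dock2, which activates Rac in moving leukocytes (log2 fold change 0.99; edgeR adjusted p = 0.072), and Pik3r5, a regulatory subunit of a phosphoinositide kinase (log2 fold change 1.96; adjusted p = 0.0721). For both, every luteolin library lay above every control library. Whether these lists and the chemokines moved with the same cells was not tested.

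**Figure D5:**
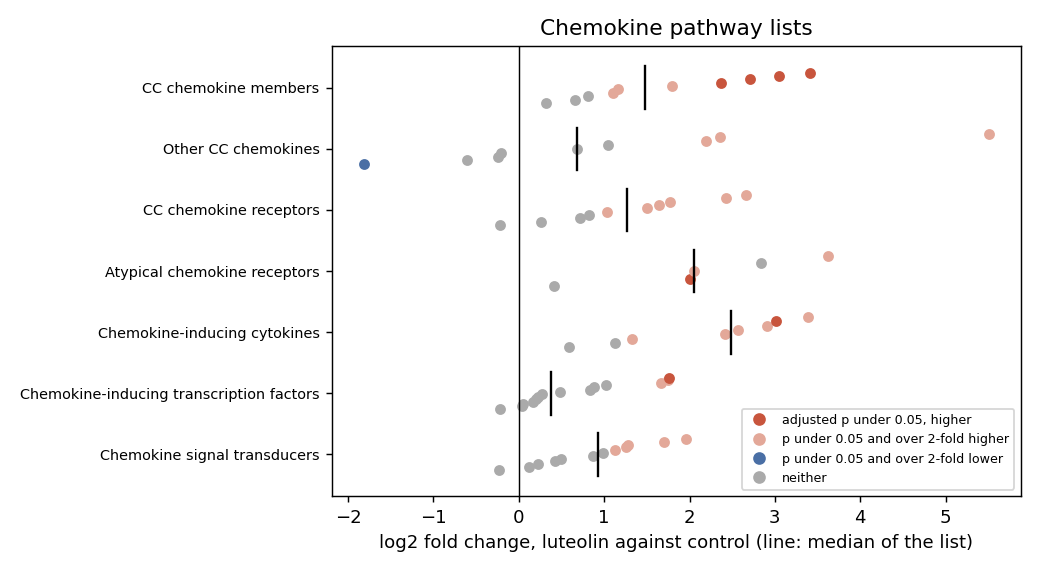
Log2 fold change, luteolin against control, of each tested gene in 7 lists of the chemokine pathway, with a vertical line at the median of each list. Dark red marks an adjusted p under 0.05, light red and blue mark the study's threshold, and the medians run from 0.38 for the transcription factors to 2.49 for the cytokines.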

How the data were processed

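6 RNA-seq libraries were compared, 3 of each group. The authors deposited estimated counts, as whole numbers for each gene symbol that were not scaled to a common total. The submitters' processing notes name bcl2fastq 2.0, HISAT2, StringTie, DESeq2 and the builds rn6 and mm39, without the role of each. The deposited values were called estimated because 44.8% of those from 1 to 40 were multiples of 4, and 1 unit need not be 1 read pair. The study's methods and the labels name different RNA extraction and library kits.

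Values were rounded to whole numbers and tested in R 4.3.3 with edgeR 4.0.16 (TMM scaling, filterByExpr, quasi-likelihood test, no covariate), with two-sided p values adjusted by Benjamini-Hochberg over 14963 genes. Log2 CPM carry a prior count of 2. DESeq2 1.42.0 and voom of limma 3.58.1 were alternatives. The pipeline was tested on simulated data. Lengths, GC content, positions and coding sequence came from GENCODE M21 on GRCm38 and promoters from RefSeq on GRCm38.p6, and no position was taken from the deposited table. 0 columns of sample values were left unused.

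The members and the lists of genes were chosen with earlier results of these data known. Named were the 10 members, of each pathway list the genes at an adjusted p under 0.05 and the 2 with the smallest p, Ccr1, Ccr2, Ccr3 and Ccr4, the 3 most abundant markers of each cell type list that moved with the members, and the 5 genes most like the members' mean. Some genes that this rule selects are not reported here. Other genes named, such as markers at 0 or past the adjusted threshold, and Ccl17, were chosen after their values were seen.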

Additional observations from a re-analysis of the deposited data

How the results depend on the processing

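No fold change of a member changed direction under any alternative run. At an adjusted p under 0.05, 136 of the member values kept the outcome of the main run, while 24 lost a call and 10 gained one. Most of the 136 belong to genes that the main run did not call. Of the called genes, Ccl3, Ccl4, Ccl5 and Ccl8 kept the call in 9, 12, 11 and 12 of 17 alternatives. The number of members called at an adjusted p under 0.05, 4 in edgeR, was 8 with DESeq2, 9 with voom, 0 to 4 without each library in turn, 0 without luteolin replicates 1 and 2 together, and 5 to 9 with DESeq2 without each library in turn, which was added after the data had been seen. At the study's threshold it was 7 in each alternative except 5 without control replicate 1 or luteolin replicate 1. Without luteolin replicates 1 and 2 together the 7 were other genes in part, with Ccl6 and Ccl9 in place of Ccl2 and Ccl7, and that fit takes the spread from the control group alone. Over all genes, 200 higher and 28 lower became 1543 and 415 with DESeq2, 1886 and 1311 with voom, 345 and 47 with a minimum of 10 counts in every library, 327 and 46 with values divided by 4, 637 and 270 with an offset for GC content and length, 0 to 276 and 0 to 36 without each library, and 4 and 1 without luteolin replicates 1 and 2. At the study's threshold 1687 higher became 772 without luteolin replicates 1 and 2, and 227 lower became 498 with voom and 140 to 305 without each library. By the same threshold, the receptors gave 2 to 5, the cytokines 3 to 6 and the signal transducers 3 to 7 without each library. Without luteolin replicates 1 and 2, the receptors gave 2, the atypical receptors 1 and the signal transducers 2, and voom gave 3 signal transducers. The cause was not tested. Same-numbered libraries did not deviate together (correlations of -0.20, -0.092 and 0.063), but so few libraries cannot exclude a pairing. With the replicate block 2 members (Ccl4 and Ccl8) and 34 higher and 1 lower gene were called. Adding the replicate block to the GC and length offset gave 4 members and 152 higher and 21 lower genes. The length of all exons moved Ccl5, Ccl7, Ccl9 and Ccl12 to places 6, 5, 4 and 3 of the luteolin order.

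With 3 libraries a group, the adjusted calls rest on few degrees of freedom, and the lowest count of a member was 58, in units that need not be read pairs. A value that missed the threshold does not show that the groups were alike.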
